A study of Mus musculus with 8 samples.

Results

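Atf3 encodes activating transcription factor 3, and 9 genes encode proteins of the same class that can pair with it or compete for its partners: Jun, Junb, Jund, Fos, Fosl2, Jdp2, Atf2, Atf7 and Maff. These 10 genes were taken by name from the deposited table of normalized counts, which lists 24972 genes, and all 10 were found. The table comes from mouse liver 8 weeks after an AAV8 virus was given into a vein of C57BL/6J mice at 10 weeks of age, so that the livers were taken at 18 weeks. The Null group received AAV8-ALB-Null, a virus that carries no named gene, and the ATF3 group received AAV8-ALB-ATF3. Both viruses share the capsid type and the ALB element, taken here as the albumin promoter that drives expression in hepatocytes. Each group has 4 libraries, although 8 mice a group are stated in the design text. Whether a library stems from 1 animal or a pool is not stated, and p-values cover the variation among libraries, which may be technical. Values of a group are given in the order of its libraries 1 to 4. The sources used here do not state the species, form or dose of the delivered ATF3 sequence, and in these values transcripts of the virus cannot be told apart from those of the liver's own gene.

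Proteins of the bZIP class join a basic region, which contacts DNA, to a leucine zipper, through which they form pairs. Jun and Fos proteins pair as AP-1, the factor of growth and stress signals, and ATF3, JDP2 and ATF2 can join Jun proteins. ATF3 is barely made in resting liver, is induced by many kinds of stress, and as a homodimer represses transcription, including that of its own gene. Pairs that contain ATF3 may activate or repress, depending on the partner.

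The normalized counts are estimated reads per gene after the authors' scaling, and they summed to between 23.9 M (ATF3 1) and 28.4 M (Null 4) per library. Read depth was roughly estimated as this sum divided by the library's most frequent low value. It was between 17.2 M (Null 3) and 48.5 M reads (Null 2 and ATF3 1). The locus named Mir6236, whose reads were not traced to a source, held 89.4% of the TPM (a level relative to transcript length) in Null 1 and 37.0% in ATF3 1. In the other libraries this share was between 0.308% and 20.8%. Ratios, shares and ranks from TPM were therefore taken within a library, where the library total does not move them, and fits on TPM between the groups stand only as alternatives to those on normalized counts. In a fit that weights libraries by their spread, Null 4 had the lowest weight (0.228, against up to 2.41). The 5 hepatocyte markers summed to between 1583820 and 2640120 normalized counts in Null and between 2523350 and 2979190 in ATF3, most of it Alb. Of these 5 genes 1 rose (Ttr, 1.26 on the log2 scale) and 2 fell (Serpina1a at -2.89 and Apoa1 at -0.46), and the median log2 change was -0.39. Serpina1a belongs to a family of near-identical genes between which reads may be split, and its value is uncertain. The Apoa1 call (limma adjusted p = 0.0494) held under 4 of 19 alternatives and was lost without each library but Null 4, and its sign turned with TPM as deposited. Alb (0.51, adjusted p = 0.178) and Hnf4a (-0.39, adjusted p = 0.0529) did not pass. Hnf4a passed without Null 4 (adjusted p = 0.0342) and with library weights (adjusted p = 0.0325). Markers of Kupffer cells and macrophages (7 genes), endothelial cells (5) and stellate cells (5) had 0 members that passed the limma test described below, and 0 of 5 tested markers of lymphocytes and neutrophils passed. At an unadjusted limma p under 0.05, 2 stellate cell markers and 0 of the other markers in these lists were lower, and 0 were higher. Of 4 cholangiocyte markers, 1 fell (Sox9).

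The promoters of 4 of the genes are printed because Atf3 is the gene that was delivered, Junb and Fosl2 are the partners that fell, and Maff holds the one full cyclic AMP response element found. Each is the stretch of 250 bases before a RefSeq start site (GRCm38.p6), written 5′ to 3′ in lower case, with matches to the searched motifs in capitals. For Maff, which has 3 start sites in the table, the second is shown.
Atf3, chr1:191183334-191183583, minus strand: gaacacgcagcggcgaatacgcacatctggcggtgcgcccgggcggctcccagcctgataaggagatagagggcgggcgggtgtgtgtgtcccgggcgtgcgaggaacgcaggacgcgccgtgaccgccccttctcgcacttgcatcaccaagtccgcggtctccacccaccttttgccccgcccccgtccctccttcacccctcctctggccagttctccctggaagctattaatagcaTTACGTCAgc
Junb, chr8:84978749-84978998, minus strand: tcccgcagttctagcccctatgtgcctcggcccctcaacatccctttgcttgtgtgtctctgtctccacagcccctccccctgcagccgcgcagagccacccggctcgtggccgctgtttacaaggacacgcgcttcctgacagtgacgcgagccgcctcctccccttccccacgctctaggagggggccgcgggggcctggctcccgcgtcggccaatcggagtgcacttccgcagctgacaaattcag
Fosl2, chr5:32136222-32136471, plus strand: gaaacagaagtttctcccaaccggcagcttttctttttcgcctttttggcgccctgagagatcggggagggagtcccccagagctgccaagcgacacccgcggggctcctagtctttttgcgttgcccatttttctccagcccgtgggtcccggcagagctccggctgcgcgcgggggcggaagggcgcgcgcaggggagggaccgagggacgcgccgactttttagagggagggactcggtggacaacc
Maff, chr15:79347270-79347519, plus strand: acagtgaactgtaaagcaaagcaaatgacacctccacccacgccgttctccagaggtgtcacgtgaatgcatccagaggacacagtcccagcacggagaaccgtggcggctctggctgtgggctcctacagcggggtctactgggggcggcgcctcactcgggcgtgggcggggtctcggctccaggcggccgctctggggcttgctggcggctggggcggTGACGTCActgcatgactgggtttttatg

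Both strands of the promoters were searched from 250 bases before to 50 after the start site, for the AP-1 motif TGANTCA, the cyclic AMP response element TGACGTCA, its looser form TNACGTCA (which contains the former) and the CArG box. All 10 genes matched the RefSeq table, with 14 promoters among them. The Atf3 promoter held TTACGTCA from -10 to -3 relative to the start site. The second Maff promoter held TGACGTCA from -29 to -22. The looser form thus stood in 2 of the 14 promoters, against 2.93% of all 32851 promoters in the table, and the full element in 1 of 14, against 1.79%. The AP-1 motif, present in 7.81% of all promoters, and the CArG box, present in 1.63%, were in 0 of the 14. These are matches of letters, and binding was not measured. Sites outside the searched windows, or with letters other than those of the motifs, would not have been found. The searched windows of Atf3, Fosl2 and Jund do not hold the outermost start of the gene in GENCODE vM21, where motifs were not searched. For Jund the whole window lies upstream of that start (70698949), so the bases directly before that start were not searched.

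Atf3 itself came first in the analysis because it checks the labels. The Null libraries held 24.2, 22.5, 24.5 and 20.3 normalized counts of Atf3, and the ATF3 libraries held 5611, 5886, 7053 and 6722. Every ATF3 library thus lay far above every Null library, and the labels held in all 8. The log2 change was 8.05 (limma-trend on log2(value + 1), SE 0.11, Benjamini-Hochberg adjusted p = 5.6e-11 over 13301 genes), which is 264-fold. Its 95% interval was 7.80 to 8.29. The size depends on the scale, since 1 is added to low Null values: it was 7.58 with 10 added, 7.10 per 1000000 normalized counts, 6.99 with TPM as deposited and 6.42 with rescaled TPM, and the call held in each. In bulk tissue, more transcript per cell and more cells with the transcript cannot be told apart.

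The level of Atf3 varied little within the ATF3 group. The highest library, ATF3 3, held 1.26 times the level of the lowest, ATF3 1, and the coefficient of variation was 10.8%, close to the 8.38% of the Null group. Of every 1000000 normalized counts of a library, Atf3 held 235, 227, 276 and 271 across the ATF3 libraries, against 0.714 to 0.934 in Null. On this scale ATF3 3 and ATF3 4 were again the higher pair. The Null values are low but were not at the limit of detection, with between about 13.0 (Null 4) and 40.0 (Null 2) reads by the rough depth estimate. With 4 libraries, no relation between the Atf3 level and that of a partner within the ATF3 group was tested.

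Ranks by TPM place this level among all transcripts. TPM rests on a transcript length, and the form of the delivered ATF3 sequence is not stated. The TPM ranks, ratios and shares of Atf3 in the ATF3 libraries are therefore uncertain. Atf3 ranked between 11920 and 12085 of 15480 to 16412 genes with a TPM above 0 in the Null libraries. It ranked 611, 643, 545 and 553 across the ATF3 libraries. Within the 52 bZIP genes listed here, Atf3 moved from rank 40 to 43 in Null to rank 3 in ATF3 1 and rank 2 in ATF3 2, 3 and 4. The bZIP gene above it in every ATF3 library was Creb3l3, which encodes a liver-enriched membrane-bound factor of lipid metabolism. Creb3l3 had 1.5004, 1.55, 1.34 and 1.32 times the TPM of Atf3 across the ATF3 libraries. Relative to Hnf4a, a hepatocyte master regulator, the Atf3 TPM was 0.883, 1.14, 1.07 and 1.11 times as high across the ATF3 libraries, and at most 0.00325 times in Null.

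**Figure D1:**
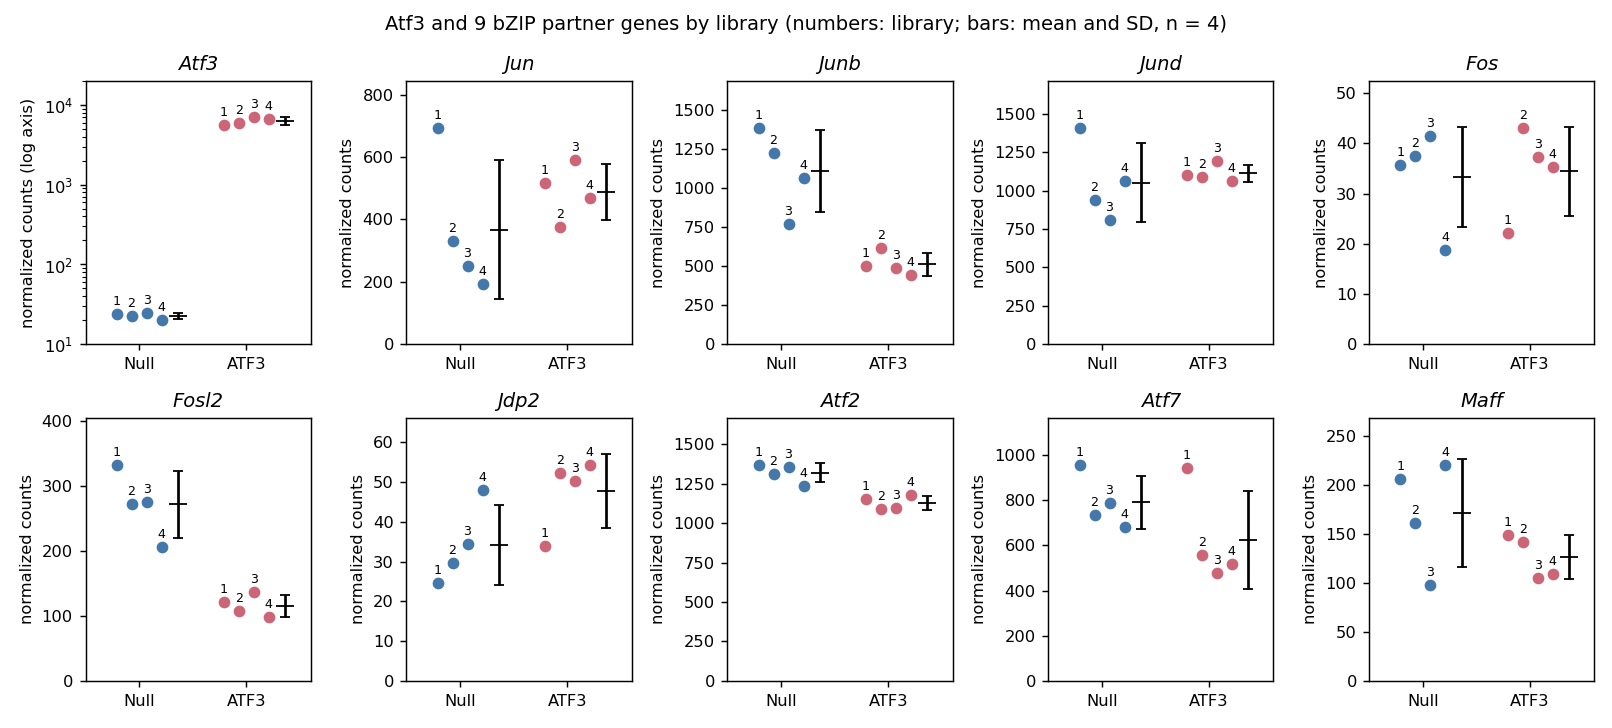
Normalized counts (vertical axis, from 0 except for Atf3, which has a log axis) of the 10 genes in each of the 4 Null (blue) and 4 ATF3 (red) libraries, with the library number above each point and the mean and SD beside it. Atf3, Junb, Fosl2 and Atf2 are the genes whose groups do not overlap, and Null 1 is the highest Null library for Jun, Junb, Jund, Fosl2, Atf2 and Atf7.

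Of the 9 partner genes, 2 fell (Junb and Fosl2), 0 rose, and 7 did not pass. At an unadjusted limma p under 0.05, 3 were lower and 0 higher, where 16.3% of all tested genes were lower and 17.6% higher. Among all 13301 tested genes, 9.82% fell and 11.4% rose at an adjusted p under 0.05, and 21.2% changed in either direction. All 10 genes passed the filter on low values (at least 10 normalized counts in at least 4 libraries). The median log2 change of the 9 partners was -0.22, against 0.0068 for all tested genes. No overlap between the groups was seen for 3 partners (Junb, Fosl2 and Atf2), where 26.3% of all tested genes showed no overlap. The share called in either direction, 22.2% of the partners, is near the background and is no result about the partners. The number that fell was 3 without Null 3, Null 4 or ATF3 1, and the number that rose was 1 without Null 1 and 2 without Null 1 and Null 4. With another scaling the balance over all genes moved: values divided by the library sum gave 2506 higher and 840 lower genes, and TPM as deposited gave 440 and 76, against 1513 and 1306. These 2 scalings moved the median of all genes to 0.11 and 0.68, and differences with TPM as deposited below include that shift. Less the median, the differences in that fit were -0.79 for Junb, -0.89 for Fosl2, -0.0090 for Atf2, -0.26 for Atf7 and -0.32 for Maff. They were 0.58 for Jun and 0.32 for Jund. Fos (-0.34) and Jdp2 (-0.066) then lay below the median, where the main fit had them above it (0.058 and 0.48).

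The Jun genes encode the AP-1 subunits that can join both Fos and ATF proteins. Junb, a Jun protein that often opposes c-Jun, held 1379, 1224, 766 and 1066 normalized counts across the Null libraries. It held 502, 614, 490 and 442 across the ATF3 libraries. The lowest Null library thus lay above the highest ATF3 library. Junb fell by 1.09 on the log2 scale (limma, SE 0.18, 95% interval -1.48 to -0.70, adjusted p = 0.00177), or 2.13-fold. Leaving out each library in turn gave adjusted p from 0.000416 to 0.00821. The gene Prdx2 overlaps 351 bases of Junb on the other strand, and held 1933 to 2307 normalized counts in the Null and 2344 to 2857 in the ATF3 libraries. With TPM as deposited the difference was -0.11 and the call was lost (adjusted p = 0.896), while rescaled TPM kept it (-1.02, adjusted p = 0.0025).

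Jun encodes c-Jun, the most studied partner of ATF3. It held 691, 330, 252 and 194 normalized counts across the Null libraries, and 515, 376, 589 and 469 across the ATF3 libraries. Of the Null libraries 3 lay below all ATF3 libraries, and Null 1 lay above all of them. The difference of 0.56 (limma, SE 0.33, 95% interval -0.17 to 1.30) did not pass (adjusted p = 0.266). Without Null 1 it was 0.92 and passed (adjusted p = 0.014). The 3.56-fold range of Jun over the Null libraries was wider than that of any other of the 10 genes in either group. Null 1 is also the library with the largest share of TPM at Mir6236, and the part of that share in the Jun value was not tested.

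Jund, the Jun family member with steady expression in many tissues, held 1406, 938, 807 and 1062 normalized counts across the Null libraries. It held 1102, 1091, 1197 and 1067 across the ATF3 libraries. The ATF3 values lay within the Null range. The difference was 0.11 (limma, SE 0.15, 95% interval -0.23 to 0.45, adjusted p = 0.658). With Null 1 and Null 4 both left out it was 0.35 and passed (adjusted p = 0.0327). In GENCODE vM21, 50.1% of the 31-base stretches of Jund also occur in the antisense gene Gm11175, which the table does not list. The labels name a stranded kit, but the sources used here do not state whether the counting used strand.

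The ratio of Junb to Jun within a library does not depend on the scaling. By TPM it was 3.50, 6.51, 5.34 and 9.66 across the Null libraries and 1.71, 2.86, 1.46 and 1.65 across the ATF3 libraries. The lowest Null ratio, in Null 1, lay above the highest ATF3 ratio, in ATF3 2. The mean was 6.25 ± 2.59 for Null against 1.92 ± 0.638 for ATF3 (SD, n = 4 per group). This ratio was chosen after both genes' values were seen, and no test is given. The ratio of Jund to Jun overlapped between the groups, with 3.79 ± 1.65 for Null against 2.61 ± 0.434 for ATF3 (SD, n = 4 per group).

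**Figure D2:**
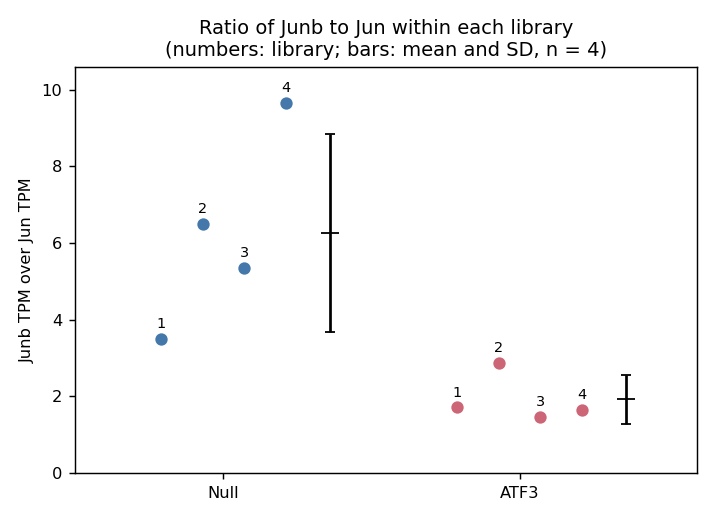
Ratio of Junb TPM to Jun TPM (vertical axis, from 0) in each Null (blue) and ATF3 (red) library, with the library number above each point and the mean and SD beside it. The 4 ATF3 ratios lie between 1.46 and 2.86 and the 4 Null ratios between 3.50 and 9.66.

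The Fos genes encode the AP-1 subunits that need a Jun partner to bind DNA well. Fosl2, which encodes FRA-2, held 331, 272, 275 and 206 normalized counts across the Null libraries. It held 121, 107, 137 and 97.6 across the ATF3 libraries. The groups did not overlap. Fosl2 fell by 1.21 (limma, SE 0.17, 95% interval -1.58 to -0.85, adjusted p = 0.000625), or 2.32-fold. Leaving out each library in turn gave adjusted p from 0.000107 to 0.00305. The call was lost with TPM as deposited (-0.21, adjusted p = 0.504).

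Fos, the classical immediate early gene, was low in all 8 libraries. The Null libraries held 35.6, 37.4, 41.5 and 18.8 normalized counts, and the ATF3 libraries held 22.1, 43.0, 37.4 and 35.4. Each group had 1 low library (Null 4 and ATF3 1), and the groups overlapped over most of their range. The difference of 0.065 (limma, SE 0.30, 95% interval -0.59 to 0.72, adjusted p = 0.902) changed sign when Null 4 or ATF3 2 was left out. The lowest value stands for about 11.99 reads, and a true difference anywhere within that interval remains possible. Summed by TPM, Jun genes exceeded Fos genes 17.9 ± 4.83 times for Null and 22.4 ± 2.44 times for ATF3 (SD, n = 4 per group).

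Jdp2 encodes the bZIP protein closest in kind to ATF3, a repressor that also joins Jun proteins. It held 24.5, 29.6, 34.4 and 47.9 normalized counts across the Null libraries, and 33.9, 52.2, 50.3 and 54.2 across the ATF3 libraries. Of the ATF3 libraries 3 lay above all Null libraries, and ATF3 1 lay among them. The difference was 0.49 (limma, SE 0.25, 95% interval -0.056 to 1.04, adjusted p = 0.191). It passed with library weights alone among the 19 alternatives (0.66, adjusted p = 0.0235). Atf3 and Jdp2 share 0 of their 31-base stretches in GENCODE vM21.

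Atf2 and Atf7 encode related activators that stress kinases switch on by phosphorylation. Atf2 was the steadiest of the 10 genes. It held 1367, 1312, 1358 and 1237 normalized counts across the Null libraries, and 1155, 1087, 1098 and 1179 across the ATF3 libraries. The groups did not overlap, yet the difference of -0.22 (limma, SE 0.080, 95% interval -0.40 to -0.045) missed the threshold (adjusted p = 0.074). It passed without Null 4 (adjusted p = 0.0313) and with library weights (adjusted p = 0.0228). Its sign turned with TPM as deposited (0.67, adjusted p = 0.438).

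Atf7 held 956, 736, 787 and 683 normalized counts across the Null libraries, and 943, 558, 480 and 516 across the ATF3 libraries. Of the ATF3 libraries 3 lay below all Null libraries, and ATF3 1 lay near the top of the Null range. The difference was -0.38 (limma, SE 0.20, 95% interval -0.83 to 0.067, adjusted p = 0.216). It passed without ATF3 1 (-0.60, adjusted p = 0.0132) and with library weights (-0.50, adjusted p = 0.0349). With TPM as deposited its sign turned (0.42, adjusted p = 0.532). Null 1 and ATF3 1, the highest libraries of Atf7, are the pair with the largest share of TPM at Mir6236, and its part in these values was not tested. The read-through gene Gm28047, which overlaps Atf7 on the same strand and is not listed in the table, shares 11.3% of the 31-base stretches of Atf7.

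Maff encodes a small Maf protein, which has no activation domain and pairs with other bZIP proteins. It held 206, 161, 98.2 and 220 normalized counts across the Null libraries, and 149, 142, 105 and 109 across the ATF3 libraries. Null 3 lay below all ATF3 libraries and the other Null libraries above them. The difference of -0.39 (limma, SE 0.25, 95% interval -0.93 to 0.16, adjusted p = 0.305) passed without Null 3 (-0.63, adjusted p = 0.0417). It was -0.0091 without Null 1 and Null 4, and with TPM as deposited its sign turned (0.36, adjusted p = 0.53).

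**Figure D3:**
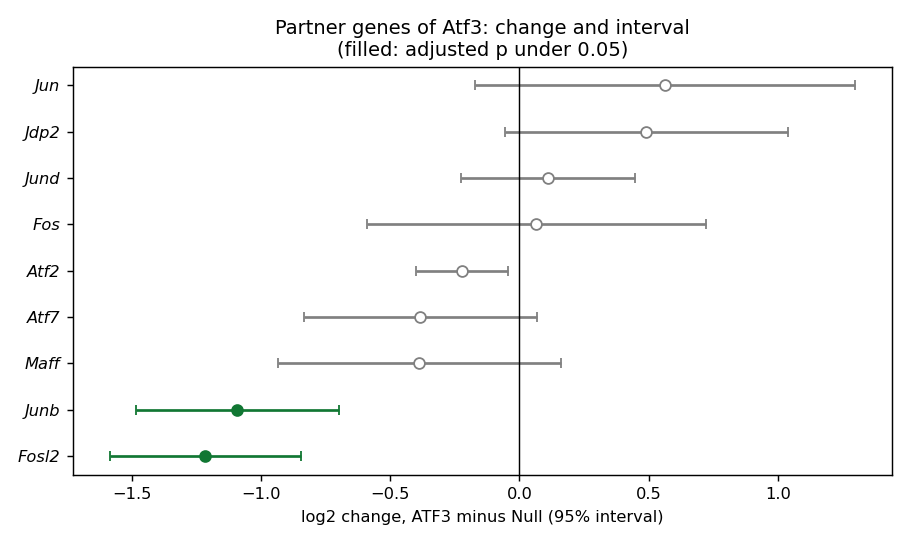
Difference of each of the 9 partner genes between the ATF3 and Null groups on the log2(normalized count + 1) scale (horizontal axis), with its 95% interval and filled points where the adjusted p is under 0.05. Fosl2 at -1.21 and Junb at -1.09 are the filled points, and the intervals of Jun, Jund, Fos, Jdp2, Atf7 and Maff include 0. With TPM as deposited the signs of Atf2, Atf7 and Maff turned, in a fit whose median over all tested genes was 0.68.

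Per transcript length, the makeup of the 10 genes differed between the groups mainly through Atf3. Atf3 made up 0.581%, 0.675%, 0.898% and 0.649% of their summed TPM across the Null libraries, and 67.4%, 69.3%, 72.9% and 73.1% across the ATF3 libraries. In Null, Junb was highest with 33.7% ± 3.66 (SD, n = 4), above Atf2 with 21.7% ± 3.80 and Jund with 20.4% ± 1.85, which did not differ beyond their spread. Atf7 (7.39% ± 1.04), Jun (6.10% ± 2.57) and Maff (5.12% ± 1.39) followed, and their ranges overlapped. Fosl2 (2.55% ± 0.456) came next. Jdp2 (1.41% ± 0.548), Fos (0.978% ± 0.376) and Atf3 (0.701% ± 0.137) were lowest and overlapped.

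In the ATF3 group Jund (8.18% ± 0.459), Atf2 (6.87% ± 0.562) and Junb (5.94% ± 1.13) followed Atf3 (70.7% ± 2.79; SD, n = 4 each), and Atf2 and Junb overlapped. Counted among the 9 partners alone, Junb made up 33.9% ± 3.66 of the TPM in Null and 20.2% ± 2.67 in ATF3. Jund made up 20.5% ± 1.85 in Null and 27.99% ± 1.39 in ATF3, and Jun 6.14% ± 2.58 for Null against 10.95% ± 1.94 for ATF3 (SD, n = 4 per group). By TPM the order of the partners thus began with Junb in Null and with Jund in ATF3. By normalized counts, which are not per length, Atf2 had the highest mean share of the 10 genes' sum among the partners in both groups (25.9% in Null, against 21.3% for Junb, and 10.8% in ATF3, against 10.61% for Jund). In the ATF3 libraries Atf3 transcripts stood at 3.65, 3.77, 4.33 and 4.72 times the summed TPM of the 3 Jun genes, and at 2.07, 2.25, 2.69 and 2.72 times that of all 9 partners. In Null these ratios were at most 0.0168 and 0.00906. Transcript levels do not give protein levels or pairs. The TPM of Atf3 in the ATF3 libraries also rests on a length that may not be that of the delivered sequence.

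**Figure D4:**
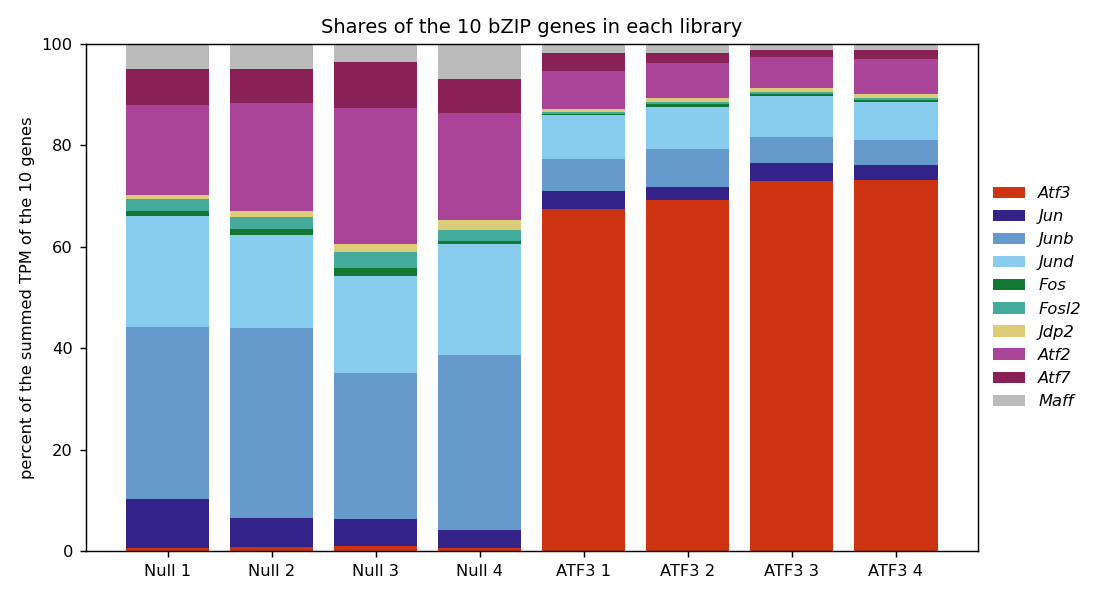
Stacked bars of each gene's percent of the summed TPM of the 10 genes (vertical axis, from 0) in each of the 8 libraries. Atf3 takes between 0.581% and 0.898% in the Null libraries and between 67.4% and 73.1% in the ATF3 libraries.

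Other bZIP genes, which include the C/EBP, CREB and PAR families, were read from a list of 42. Of these 35 passed the filter, 2 rose and 10 fell, or 34.3% against 21.2% of all tested genes. Their median log2 change was -0.15. The largest fall was that of Nfil3, a repressor of the clock and of immune genes, which held 397, 271, 303 and 282 normalized counts across the Null libraries. It held 58.2, 58.9, 59.4 and 47.7 across the ATF3 libraries (-2.45, SE 0.15, limma adjusted p = 3.15e-06). Bach1, a repressor of haem oxygenase that pairs with small Maf proteins, fell by 1.33 (adjusted p = 7.47e-06). Crem, a cyclic AMP responsive factor gene, and Cebpe fell by 1.05 and 1.12, and Dbp, a clock output factor gene of the PAR family, fell by 0.73. Cebpa, a factor gene of differentiated hepatocytes, fell by 0.60 (adjusted p = 0.00918).

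The 2 that rose were Creb3l3 (0.64, limma adjusted p = 0.000686) and Cebpd (1.15, adjusted p = 0.0031). Of the untested genes, Fosb and Fosl1, the remaining Fos genes, held at most 7.98 and 1.17 normalized counts in any library. With TPM as deposited the calls of Creb3l3 (limma adjusted p = 0.341) and Cebpd (adjusted p = 0.101) were lost. That fit called 1 other gene of the 35 higher and 0 lower. Of the genes named above, the signs of Dbp and Cebpa turned.

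**Figure D5:**
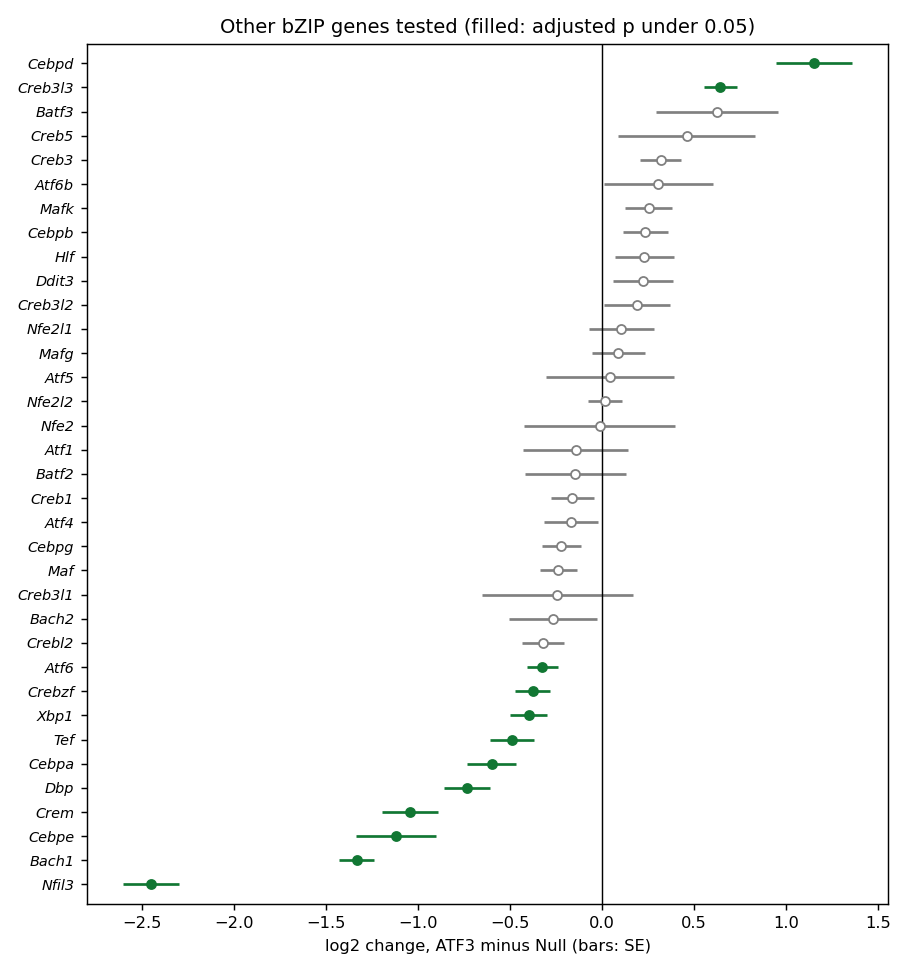
Difference between the ATF3 and Null groups on the log2(normalized count + 1) scale (horizontal axis, bars are the SE) for the 35 other bZIP genes that passed the filter, with filled points where the adjusted p is under 0.05. The filled points are 10 on the lower side, from Nfil3 at -2.45, and 2 on the higher side, up to Cebpd at 1.15. Signs with TPM as deposited were read only for the genes named here or in the text, and those of Dbp, Cebpa and Xbp1 turned. The median of all tested genes was 0.68 in that fit.

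Immediate early genes answer growth and stress signals within minutes, as Fos, Jun and Junb do. Of 31 listed, 29 were found and 24 tested, and 3 rose and 1 fell (16.7%, below the 21.2% of all tested genes), with a median log2 change of 0.15. Klf6 and Zfp36l1 rose by 0.45 and 0.52, and Klf10 fell by 0.67. Nr4a2, an orphan receptor gene, rose by 1.43 from a mean of 9.12 to 26.4 normalized counts, and lost the call without Null 3, ATF3 3 or ATF3 4 (adjusted p up to 0.0889). Zfp36l1 lost it without Null 3, ATF3 1 or ATF3 2 (adjusted p up to 0.0747). Egr1, named after its values were seen, held 472, 588, 201 and 103 across the Null libraries and 125, 102, 103 and 85.8 across the ATF3 libraries. Its Null libraries differed more from each other than the ATF3 libraries did, and the difference of -1.41 did not pass (SE 0.46, limma adjusted p = 0.0545). Without Null 4 Egr1 passed (-1.88, adjusted p = 0.00158), as it did with library weights (-1.84, adjusted p = 0.00187). It also passed without Null 1 and Null 4 (-1.73, adjusted p = 0.00852).

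Kinases and phosphatases that set the activity of Jun, Fos and ATF2 proteins were read from a list of 31 genes, of which 29 were tested. The list also holds the transcription factor gene Elk1, which the counts include. Of the 29 tested genes 1 rose and 4 fell (17.2%), with a median log2 change of -0.063. Dusp4, a phosphatase of MAP kinases, fell by 0.82, and Elk1, a factor that drives Fos and Egr1, fell by 0.54. Rps6ka1, a kinase gene, fell by 0.51. Map3k5, the stress kinase ASK1, fell by 0.59 and Map2k3 rose by 0.57 (limma adjusted p = 0.0468). The Map3k5 call was lost without Null 1, Null 2, ATF3 2, ATF3 3 or ATF3 4 (adjusted p up to 0.065) and with values divided by the library sum (-0.46, adjusted p = 0.0678). The Map2k3 call was lost without Null 1, Null 4 or any of ATF3 1 to 4 (adjusted p up to 0.121), with no filter, with library weights (0.35, adjusted p = 0.0658) and in both TPM fits, and it held under 8 of 19 alternatives. With TPM as deposited the signs of Klf10, Elk1, Map3k5 and Rps6ka1 turned.

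The genes whose pattern over the 8 libraries was most like that of Atf3 were Sult2a3, Tnfrsf23, Abhd2, Cyp2a4 and Pnp, with Pearson's r of log values of 0.998, 0.998, 0.997, 0.997 and 0.996. This likeness is a description and mostly reflects the step between the groups. For the partners it was therefore taken over deviations from the group means. Net1 (r = 0.991) and Cln8 (r = 0.989) were then most like Jun, Aldoa (r = 0.955) most like Junb, and Rbmx2 (r = 0.961) most like Fos, over 8 libraries each. These genes were picked for the highest r among the tested genes, so this too is only a description. For Jun the largest deviation was that of Null 1 (1.09).

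In mm10 (GENCODE vM21) Atf3 lies on chromosome 1 (191170296 to 191218039), Jun on chromosome 4 (95049034 to 95052222) and Fosl2 on chromosome 5 (32135801 to 32157842). Junb lies on chromosome 8 (84974484 to 84978718), as does Jund (70698949 to 70700616). Fos (85473890 to 85477273) and Jdp2 (85599027 to 85639878) lie on chromosome 12. Atf2 is on chromosome 2 (73816509 to 73892639), and Atf7 (102525946 to 102625464) and Maff (79346621 to 79359076) are on chromosome 15.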

How the data were processed

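RNA from 8 mouse liver libraries was made with a mirVana kit and a stranded Illumina kit for total RNA, per the labels. Bowtie2 and the mm10 build are named in the submitters' processing notes, and BaseSpace in the design text. The sources used here state no quantifier, annotation or filter. The authors deposited a signal table, estimated counts divided by a factor per library (by its name a DESeq scaling), and a TPM table. The values of the signal table are not whole: between 18.6% and 39.8% of values under 30 lay within 0.02 of a multiple of the library's most frequent low value, so reads were not recovered and no count model was run. Both tables hold the same estimates (SD of their log2 ratio 0.0053 after gene and library means). Among the TPM rows, 26 names had turned into dates. Rows whose name occurred more than once were left out. The other date names matched no gene of the signal table, so the TPM fits left them out, while TPM ranks and totals kept them.

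The 13301 genes that reached 10 in 4 or more libraries were fitted with limma 3.58.1 in R 4.3.3 (limma-trend on log2(value + 1), group term, two-sided, Benjamini-Hochberg, threshold 0.05). Adding 1 understates changes of low genes. Libraries were assigned by title, and no 2 libraries shared more than 10 equal values. Alternatives changed the filter, pseudocount, scaling (trimmed mean of M-values, computed without weights), variance, table and libraries. The procedure was run on simulated data with independent noise for each gene and equal spread in all libraries. The libraries here differ in spread, so no conclusion is drawn from that run. The members and lists were chosen with earlier results of these data known. Genes named are the 10 members, up to 8 called genes of each list by p, the genes most like Atf3, Jun, Junb and Fos, and those said to be chosen later. The hepatocyte markers, Xbp1, Fosb, Fosl1 and Sox9 were also chosen later. A planned comparison of protein sequences was not run. One gene left the list of other bZIP genes after the analysis and is not reported here, so that list's counts leave it out. Tables and figures were made with matplotlib 3.10.9, pandas 2.3.3 and numpy 2.4.6 under Python 3.11.15. Intervals and rough read numbers cover what these libraries show and no other error.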

Additional observations from a re-analysis of the deposited data

Results flagged for a closer look

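In groups of 4, a library was singled out where its gap to the nearest of the others took up most of the group's range. Chance singles out about 1 in 20 groups, and 78 groups gave 4 such libraries. Atf7 held 943 normalized counts in ATF3 1, against 480 to 558 in the other ATF3 libraries. Cebpe held 85.7 in ATF3 2, against 50.01 to 54.9 in the others. Dusp4 held 90.5 in Null 2, against 81.7 to 83.0 in the others, a small gap in a narrow group. Nfil3 held 47.7 in ATF3 4, against 58.2 to 59.4 in the others.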

How the results depend on the processing

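Atf3 passed under all 19 alternatives run (log2 change 7.99 to 8.10 with each library left out in turn, and down to 6.42 with rescaled TPM), and Junb and Fosl2 under 18 of 19 each, with TPM as deposited as the exception. Of the 10 genes, 1 was called higher and 2 lower. The higher count was 2 with library weights and without Null 1, and 3 without Null 1 and Null 4, an alternative chosen after seeing the data, and with each library left out in turn it was 1 to 2. The lower count was 4 with library weights and 0 with TPM as deposited, and 2 to 3 with each library left out in turn. Of all tested genes, 2506 rose and 840 fell with values divided by the library sum, 2271 and 2130 with library weights, and 440 and 76 with TPM as deposited. With each library left out in turn, 1040 to 1965 rose and 851 (without ATF3 3) to 1812 fell. Of the other bZIP genes, 5 rose with values divided by the library sum, 4 with library weights and 1 with TPM as deposited, which called 0 lower. The mean share of Atf3 was 0.45% in Null and 60.0% in ATF3 by normalized counts in place of TPM, which are not per length. Jund passed without Null 1 and Null 4 (0.35). Signs turned for uncalled Jund without Null 3 (-0.0074) and for uncalled Fos with library weights (-0.074), without Null 4 (-0.18), without ATF3 2 (-0.052) and without Null 1 and Null 4 (-0.23). With TPM as deposited, signs were read for the 10 genes, hepatocyte markers and tested genes named from the bZIP, immediate early and kinase lists. Signs turned for Atf2 (0.67), Atf7 (0.42), Maff (0.36), Apoa1 (0.55) and Hnf4a (0.61). They also turned for Cebpa (0.40), Dbp (0.26), Elk1 (0.15), Klf10 (0.25), Map3k5 (0.31), Rps6ka1 (0.28) and Xbp1 (0.60). The median of all genes was shifted to 0.68 in that fit, and was 0.00068 with rescaled TPM. The part of the uneven Mir6236 shares in this shift was not tested. The trimmed mean of M-values was computed without the weights planned, which need counts. The motif counts were equal without the 50 bases after the start site. No paired analysis was possible because the labels give the groups no shared replicate numbers. Depth limits Fos, Jdp2 and Atf3 in Null most, with 11.99, 21.0 and 13.0 reads or more by the rough estimate.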
